A study of Drosophila melanogaster with 8 samples.

Results

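The Imp genes of Drosophila melanogaster are a small set first isolated as ecdysone-inducible transcripts that encode membrane or secreted proteins of imaginal discs. The 5 genes described here are ImpE1, ImpE2, ImpE3, ImpL1 and ImpL2, which were found by their FlyBase names among the 16845 gene identifiers of the count table, and all 5 were present. Terminalia (genitalia and analia) were taken from male pupae, one animal to a library, all of genotype yw;+;+, with 4 libraries at 24 hr after puparium formation (APF) and 4 libraries at 28 hr APF. Each library came from a different animal and none was treated, so the comparison is one of age. The terminalia were whole, and a change in bulk RNA cannot separate fewer cells of a type from less RNA per cell.

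Ecdysone is the steroid hormone that drives molting and metamorphosis. It binds a heterodimer of the nuclear receptors EcR and usp, which switches on early regulatory genes and, through them, later genes that reshape tissues. In imaginal discs the hormone triggers elongation and eversion, in which a folded epithelium becomes an appendage, and the Imp transcripts were picked up in that setting, with E for early and L for late appearance after hormone. ImpE1 encodes a protein with cysteine-rich repeats like those of the low density lipoprotein receptor. ImpE2 encodes a protein secreted from the apical side of disc cells. ImpL2 encodes a secreted immunoglobulin-family protein that binds insulin-like peptides and dampens insulin signalling.

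In the BDGP6 annotation, 4 of the 5 genes lie on chromosome arm 3L. ImpE2 (FBgn0001254) spans 3510974 to 3512681 on the minus strand, as a single exon of 1708 bases. ImpL2 (FBgn0001257) spans 4224006 to 4236147 on the minus strand, with 4 transcripts and 2667 exon bases. ImpE1 (FBgn0001253) is the longest, from 8372405 to 8391171 on the plus strand, with 6264 exon bases. ImpL1 (FBgn0001256) spans 13382765 to 13383999 on the plus strand, and ImpE3 (FBgn0001255) lies on arm 3R from 8028453 to 8029546 on the minus strand. The exons of ImpE1, ImpE2, ImpE3 and ImpL1 overlap those of no other annotated gene. By contrast, 61.9% of the exon bases of ImpL2 are shared with CG46460, which has the same orientation and no row in the count table, so reads on those bases cannot be given to one of the pair. ImpE3 lies inside an intron of CG2747 on the same strand, and unspliced CG2747 RNA would also be counted on it.

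The libraries held between 24534188 and 35795240 counted reads. All 12 markers of terminalia and epithelium that were listed lay above 1 rpkm, among them the Hox gene Abd-B, the anal plate factor cad and the adherens junction genes shg and arm. Of the markers of other sources with a row, 3 of 8 for hemocytes (Hml, eater and He), 5 of 9 for fat body (Fbp1, Lsp1beta, apolpp, Yp1 and Yp2), 2 of 8 for muscle (Mhc and bt) and all 6 for the germ line had a mean below 1 rpkm over the 8 libraries. Others on the same lists were well above it, such as the hemocyte markers Ppn at 50.6 ± 4.27 and crq at 31.3 ± 1.98 rpkm, the fat body marker Lsp1gamma at 13.3 ± 3.62 rpkm and the muscle markers Act57B at 314.6 ± 36.6 and Mef2 at 30.0 ± 2.93 rpkm at 24 hr APF (SD, n = 4 each). Fat body markers summed to 183 CPM (counts scaled to a library total of 1000000) in replicate 3 at 24 hr APF and to between 57.1 and 111 CPM in the other libraries.

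The 5 genes covered a range from among the most abundant transcripts of the tissue to transcripts with very few reads. ImpE2 had a mean level of 5514 ± 340.1 rpkm at 24 hr and 6328 ± 699.6 rpkm at 28 hr APF (SD, n = 4 each), where rpkm is the count per kilobase of exon and per 1000000 counted reads. ImpL2 followed at 76.5 ± 6.98 and 85.4 ± 8.25 rpkm (SD, n = 4 each). ImpL1 had 47.6 ± 2.39 and 46.2 ± 1.85 rpkm (SD, n = 4 each). Both were therefore well below ImpE2 at the same ages. ImpE1 had 12.2 ± 1.01 and 16.7 ± 1.32 rpkm, and ImpE3 had 3.79 ± 0.866 and 3.48 ± 1.36 rpkm (SD, n = 4 each). This order, ImpE2, ImpL2, ImpL1, ImpE1, ImpE3, held in every one of the 8 libraries, and no 2 neighbors in it had overlapping ranges over the 8 libraries. Within a library, the level of ImpE2 was between 65.5 and 91.4 times that of ImpL2. The other steps were smaller, with ImpL2 between 1.48 and 2.02 times ImpL1, ImpL1 between 2.56 and 4.38 times ImpE1, and ImpE1 between 2.45 and 9.09 times ImpE3.

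**Figure D1:**
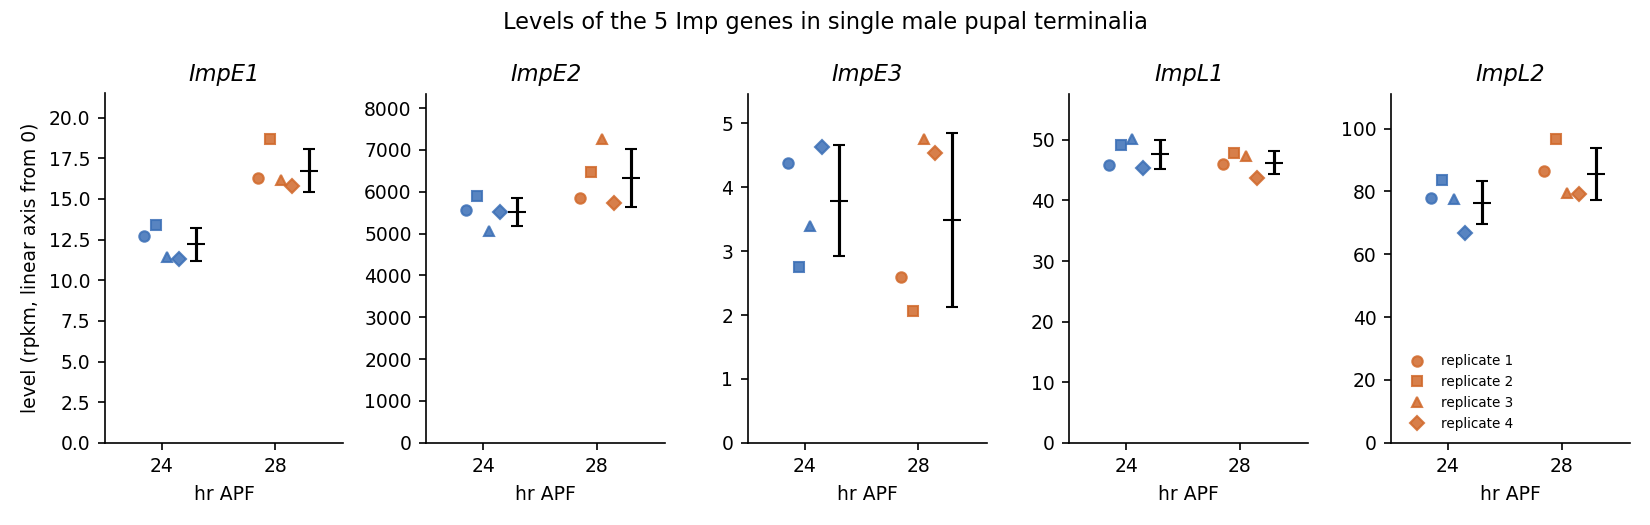
Level of each Imp gene (rpkm, linear axes from 0, a separate scale in each panel) in the 4 libraries at 24 hr APF (blue) and the 4 libraries at 28 hr APF (orange), with marker shapes for the replicate number and black bars for the mean ± SD. Only the ImpE1 panel has no overlap between the ages, at most 13.4 rpkm at 24 hr against at least 15.8 rpkm at 28 hr APF.

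ImpE2, the apically secreted protein, took between 0.867% and 1.24% of all counted reads of a library, with 239930 to 372086 reads. Its count ranked 2 or 3 among the 16845 identifiers in each library. Per exon length it was the highest of 13636 protein-coding genes with a matched length at 24 hr APF and rank 2 at 28 hr APF, behind CG34247 at 6636 rpkm. Among all 16431 identifiers with a length it ranked 3 at both ages. The 414 identifiers without a length, which held between 8.07% and 8.44% of the counts, could not be ranked. Among them were FBgn0262720 and FBgn0000556, whose mean counts of 435928 and 330150 exceeded the 307289 of ImpE2. ImpE2 made up between 96.2% and 97.1% of the counts of the 5 Imp genes together. The remaining members sat much lower on the same scale at 28 hr APF, with ImpL2 at rank 882, ImpL1 at rank 1786, ImpE1 at rank 4543 and ImpE3 at rank 7369, while 8584 protein-coding genes exceeded 1 rpkm. ImpE3, which had the lowest level, rested on 64 to 181 reads in a library.

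**Figure D2:**
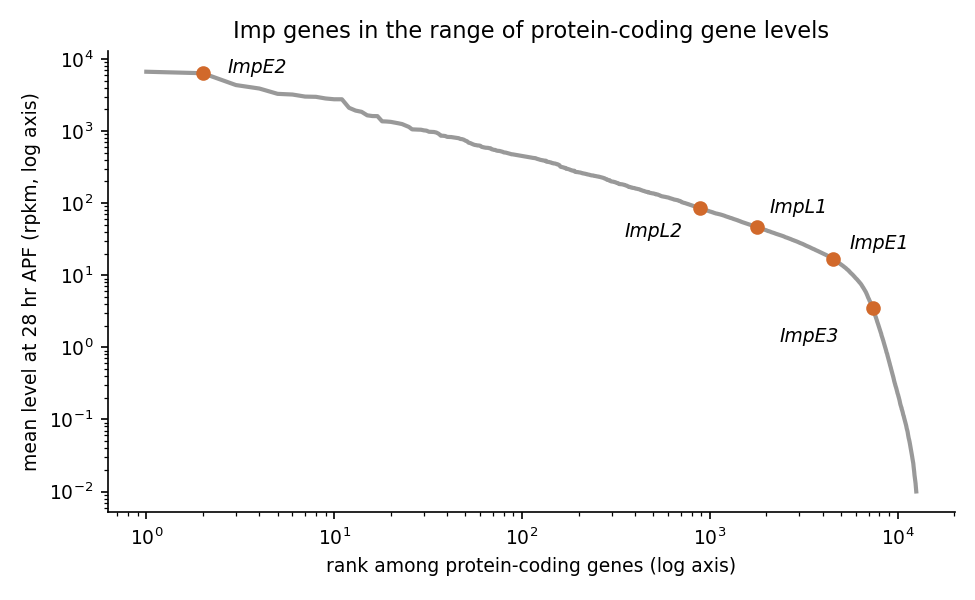
Mean level at 28 hr APF (rpkm, log axis) of protein-coding genes with a matched length against their rank (log axis), as a gray line, with the 5 Imp genes as orange points. ImpE2 sits at rank 2 and ImpE3 at rank 7369, near the bend where levels drop off.

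Of the 5 genes, 1 differed between 24 hr and 28 hr APF in edgeR (quasi-likelihood test, Benjamini-Hochberg adjusted over all 11232 tested genes, threshold 0.05), and it was higher at 28 hr. Among all tested genes 32.9% passed the same threshold, 15.6% higher and 17.3% lower at 28 hr APF, so 1 of 5 does not stand above the background. DESeq2 called 3 of the 5, ImpE1, ImpE2 and ImpL2, all higher at 28 hr APF, where it called 29.3% of the genes it tested in either direction and 14.7% as higher.

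The gene that passed was ImpE1. Its 24 hr libraries had 12.7, 13.4, 11.4 and 11.3 rpkm and its 28 hr libraries had 16.3, 18.7, 16.2 and 15.8 rpkm, in the order of replicates 1 to 4. All 4 libraries at 28 hr APF lay above all 4 at 24 hr APF, a separation that 13.2% of tested genes showed in the same direction and 21.2% in the opposite one, the latter including no Imp gene. The log2 fold change was 0.49 (standard error 0.07, adjusted p = 0.000453 in the edgeR test), which is 1.40-fold with a 95% interval from 1.26 to 1.56. The rise stayed past the threshold whichever of the 8 libraries was omitted. It was of moderate size in these data: 1261 of 11232 tested genes (11.2%) had a larger increase, and the median of all tested genes was 0.00 on the log2 scale. Tested against a fold change of 1.5 it did not pass (adjusted p = 1 in edgeR, against 3.29e-09 in DESeq2 to 0.000674 in edgeR under the other settings and 0.000709 to 0.00179 with 1 library left out).

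Marker lists of other tissues also differed between the ages beside this rise. Over all tested genes, 15.6% were called higher and 17.3% lower at 28 hr APF. The 7 neuronal and glial markers in the table summed to between 145 and 178 CPM at 24 hr and between 180 and 236 CPM at 28 hr APF, with 6 of 7 higher past the threshold, although Syt1, brp and cpx had means below 1 rpkm. The glial marker repo was the one not called, at 7.01 ± 2.49 and 5.21 ± 0.881 rpkm (SD, n = 4 each). The 4 tracheal markers in the table went from between 289 and 326 CPM to between 440 and 482 CPM, of which 2 were called higher. These were serp and verm, which encode chitin deacetylases, while trh, the regulator that defines tracheal identity, was at 0.131 ± 0.0494 and 0.115 ± 0.0579 rpkm (SD, n = 4 each). The sum of the 12 terminalia and epithelium markers went from between 5603 and 5923 CPM to between 6150 and 6298 CPM, with 7 called higher. All 8 muscle markers were called, 4 higher, led by up and bt with log2 fold changes of 1.55 and 1.41, and 4 lower, led by Mhc and twi with -1.78 and -1.30, and their sum was between 890 and 1165 CPM at 24 hr and between 880 and 977 CPM at 28 hr APF. The summed hemocyte markers had between 583 and 658 CPM at 24 hr and between 486 and 528 CPM at 28 hr APF, and 1 of 7 tested, Ppn, was called lower and none higher. Most reads of that sum were those of Ppn, with 11392 to 17177 in a library, against at most 3060 for crq, the next. In the muscle sum Act57B held the most reads, 11579 to 17366 in a library, and was among the 4 called lower. The part of these tissues in the rise of ImpE1 was not tested.

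The 3 genes whose profile over the 8 libraries was nearest to that of ImpE1 were CG12075, cdi and beta-Spec, of 7606 genes compared. The measure was the root mean square difference of log2 CPM after centering each gene, which was 0.0582 for CG12075, 0.0591 for cdi (a protein kinase) and 0.0661 for beta-Spec (beta-spectrin of the membrane skeleton), against a median of 0.293. CG12075 had 21.6 ± 1.77 and 31.0 ± 1.16 rpkm, cdi had 40.5 ± 1.66 and 54.1 ± 2.31 rpkm, and beta-Spec had 76.6 ± 5.49 and 100.2 ± 6.24 rpkm at 24 hr and 28 hr APF (SD, n = 4 each). The nearest other Imp gene was ImpL2, at 0.158. The 3 genes were picked as the nearest of the 7606, so their smaller distances follow from that choice.

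ImpE2 had 5574, 5901, 5074 and 5507 rpkm at 24 hr APF and 5854, 6464, 7261 and 5733 rpkm at 28 hr APF. The ages overlapped, with only replicates 2 and 3 at 28 hr APF above all 24 hr libraries. Its log2 fold change was 0.23 (standard error 0.09, adjusted p = 0.0682 in the edgeR test), with a 95% interval from 1.03-fold to 1.35-fold. This interval, like those of the other Imp genes, is for a single gene and, unlike the p, is not adjusted over the tested genes. The size rested on 1 library in particular: without replicate 3 at 28 hr APF, its highest, the log2 fold change was 0.14 (adjusted p = 0.144 in edgeR). Without replicate 4 at 28 hr APF it was 0.28 and passed the threshold (adjusted p = 0.0361 in edgeR, the lowest of the 8 such fits, which reached 0.146). DESeq2 also called it (adjusted p = 0.0219), while the other settings in edgeR gave adjusted p-values from 0.0514 to 1.

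ImpL2, the insulin-binding protein, showed a similar picture at a far lower level. It had 77.9, 83.6, 77.5 and 66.9 rpkm at 24 hr APF and 86.6, 96.7, 79.4 and 79.1 rpkm at 28 hr APF. Replicates 1 and 2 at 28 hr APF exceeded all 24 hr libraries and the other two did not. The log2 fold change was 0.19 (standard error 0.07, adjusted p = 0.0720 in the edgeR test), with a 95% interval from 1.02-fold to 1.28-fold. Leaving out replicate 2 at 24 hr APF moved it to 0.23, just past the threshold (adjusted p = 0.04996 in edgeR, from 0.04996 to 0.216 over the 8 fits). Without replicate 2 at 28 hr APF it was 0.13 and without replicate 4 at 24 hr APF it was 0.14, neither past the threshold. DESeq2 gave an adjusted p of 0.0460.

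Of 16 listed genes of the insulin pathway around ImpL2, 14 were tested and 1 passed the threshold, against 32.9% of all tested genes, with a median log2 fold change of 0.02 against 0.00 over all tested genes. The one that passed was Sdr, which encodes another secreted binder of insulin-like peptides, and its level fell from 19.6 ± 0.688 to 15.9 ± 0.837 rpkm (SD, n = 4 each). The log2 fold change of Sdr was -0.27, with a standard error of 0.05 and an adjusted p of 0.00350 in edgeR. ImpL2 was higher than Sdr at both ages. Among the ligands, Ilp8 ranged from 0.807 to 9.40 rpkm at 28 hr APF, a span that held all its 24 hr values, and was not called. Ilp6, at 0.442 ± 0.0938 and 0.264 ± 0.0762 rpkm (SD, n = 4 each), was not called either. The rows of Ilp2, Ilp3 and Ilp4 held counts within 2 reads of each other in every library, such as 268, 268 and 269 in replicate 4 at 24 hr APF. Ilp1 held from 62 to 134 reads against 124 to 269 for Ilp2, Ilp3 and Ilp4. Ilp5 followed the same counts slightly higher, with 142 to 273 reads and 273 in replicate 4 at 24 hr APF. Ilp1, Ilp2, Ilp3, Ilp4 and Ilp5, all among the 14 tested genes, therefore cannot be read as separate measurements.

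ImpL1 was the steadiest member. It had 45.8, 49.1, 50.1 and 45.3 rpkm at 24 hr APF and 46.1, 47.8, 47.3 and 43.7 rpkm at 28 hr APF. The ranges of the ages lay over each other, with no 28 hr library above all 24 hr libraries. The log2 fold change was -0.01 (standard error 0.05, adjusted p = 0.918 in the edgeR test), and its 95% interval, from 0.922-fold to 1.07-fold, was the narrowest of the 5. Its standard deviation within an age was 0.0656 on the log2 CPM scale, smaller than that of most tested genes, of which 21.7% had a smaller one. Among the 3368 tested genes with a mean count within 2-fold of its own, 34.5% had a smaller one.

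ImpE3 was the least even member. It had 4.37, 2.76, 3.40 and 4.62 rpkm at 24 hr APF and 2.59, 2.06, 4.75 and 4.54 rpkm at 28 hr APF. At 28 hr APF replicates 1 and 2 lay below every 24 hr library, while replicates 3 and 4 lay near the highest of them, so the ages overlapped. The log2 fold change was -0.09 (standard error 0.28, adjusted p = 0.842 in the edgeR test), with a 95% interval from 0.607-fold to 1.45-fold, so a change of the size seen in ImpE1 was not detectable for this gene. Its standard deviation within an age, 0.492 on the log2 CPM scale, exceeded that of 92.2% of the 1544 tested genes with a mean count within 2-fold of its own. The host gene CG2747 had between 14.5 and 19.2 rpkm in the 8 libraries and its own log2 fold change was 0.23 (standard error 0.05, adjusted p = 0.00491 in the edgeR test). These exon counts do not measure unspliced CG2747 RNA, whose part in the ImpE3 counts was not tested.

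**Figure D3:**
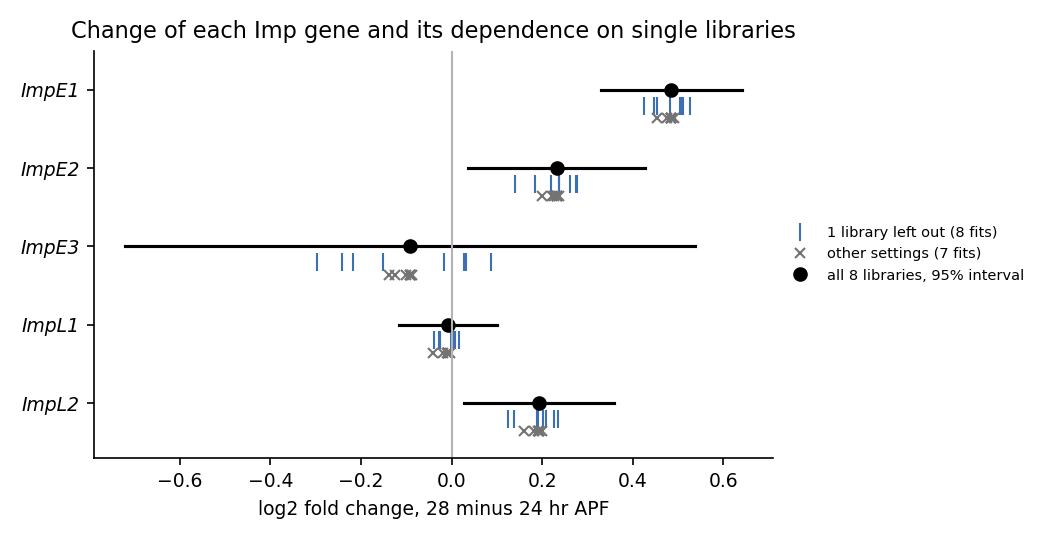
Log2 fold change from 24 hr to 28 hr APF (x axis) for each Imp gene, from edgeR on all 8 libraries with its 95% interval (black), from the 8 fits that each left out 1 library (blue ticks) and from 7 other settings (gray crosses). The ImpE1 values lie between 0.43 and 0.53 when 1 library is left out, and those of ImpE3 spread from -0.30 to 0.09.

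In rpkm, ImpE1 and ImpL2 shared the library order at its ends. In both genes, replicate 2 was the highest and replicate 4 the lowest library at 24 hr APF and again at 28 hr APF. Equal numbers name different pupae. The shared lowest library depended on the scale. In log2 CPM after TMM scaling, replicate 3 was the lowest for ImpE1 at 24 hr APF, at -0.115 from the mean of its age, against -0.085 for replicate 4. For genes of like abundance the spread of ImpE1 and ImpL2 was wide: the standard deviation within an age was 0.115 for ImpE1 and 0.126 for ImpL2 on the log2 CPM scale, larger than that of 84.7% of 3064 and 90.8% of 1882 tested genes with a mean count within 2-fold.

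The members were also compared with each other inside each library, as the log2 ratio of their counts, which does not depend on library size. Of the 10 pairs, 3 had ratios that did not overlap between the ages, ImpE1 to ImpL1, ImpE1 to ImpL2 and ImpE2 to ImpL1. The share of such pairs among other genes was not computed. Of single tested genes, 13.2% were without overlap and higher at 28 hr APF and 21.2% without overlap and lower. ImpE1, itself without overlap, is in ImpE1 to ImpL1 and ImpE1 to ImpL2. ImpE1 gained on ImpL1 by 0.49 ± 0.08 and on ImpL2 by 0.29 ± 0.05 (log2, difference ± standard error, n = 4 each), and ImpE2 gained on ImpL1 by 0.24 ± 0.09. Each of the 3 had p = 0.0286 in a two-sided exact permutation test, the smallest that 4 against 4 libraries allow. After Benjamini-Hochberg adjustment over the 10 pairs it was 0.0952, so none passed the correction. This p only restates the lack of overlap. With 3 of 10 pairs at the smallest p none could pass, so the correction decides nothing here. The ratio of ImpE2 to ImpL2 differed by 0.03 ± 0.13 between the ages (exact permutation p = 0.771, adjusted p = 0.771). The pairs share members and are not independent of each other.

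Among the listed genes of the ecdysone receptor and response, calls went in both directions. Of 26 listed genes, 23 were tested, of which 7 were called higher, 7 were called lower and 9 were not called, where 15.6% of all tested genes were called higher and 17.3% lower. Their median log2 fold change was 0.02 against 0.00 over all tested genes. The receptor gene EcR fell from 70.7 ± 1.76 to 53.1 ± 1.36 rpkm, while its partner usp had 40.1 ± 2.44 and 36.6 ± 1.26 rpkm (SD, n = 4 each) and was not called. Called increases were led by the nuclear receptor genes Hr4 and Eip78C, with log2 fold changes of 2.17 and 2.06, and by the repressor Blimp-1, with 1.40. Called decreases were led by the calcium-binding protein gene Eip63F-1 at -3.94, the nuclear receptor ftz-f1 at -2.39 and the bZIP factor vri at -1.40. Eip63F-1 rested on 1 to 111 reads in a library. The log2 fold changes of these 6 were larger in size than that of ImpE1.

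Of 12 listed genes of ecdysone uptake and metabolism, 10 were tested, 3 were called higher and none lower. Over all tested genes 15.6% were called higher and 17.3% lower, together 32.9%. The median log2 fold change of the list was 0.09. The ecdysone importer gene Oatp74D was not called and had 29.5 ± 0.552 and 29.7 ± 0.813 rpkm (SD, n = 4 each). The called gene whose ages did not overlap was Eo, an ecdysone oxidase, at 0.698 ± 0.155 and 1.14 ± 0.313 rpkm (SD, n = 4 each), a low level. Among 15 listed genes of disc elongation and eversion, 14 were tested, 2 were called higher, pio and dpy, and 1 lower, against 32.9% called over all tested genes, with a median of 0.07. pio, a zona pellucida domain protein of the apical matrix, rose from 264.7 ± 13.6 to 389.5 ± 5.80 rpkm, and the transmembrane protease gene Np fell from 51.8 ± 5.14 to 32.2 ± 2.97 rpkm (SD, n = 4 each). The related protease gene Sb, which is required for disc elongation, had 4.04 ± 0.408 and 5.06 ± 0.947 rpkm (SD, n = 4 each) and did not pass (adjusted p = 0.0619 in the edgeR test).

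**Figure D4:**
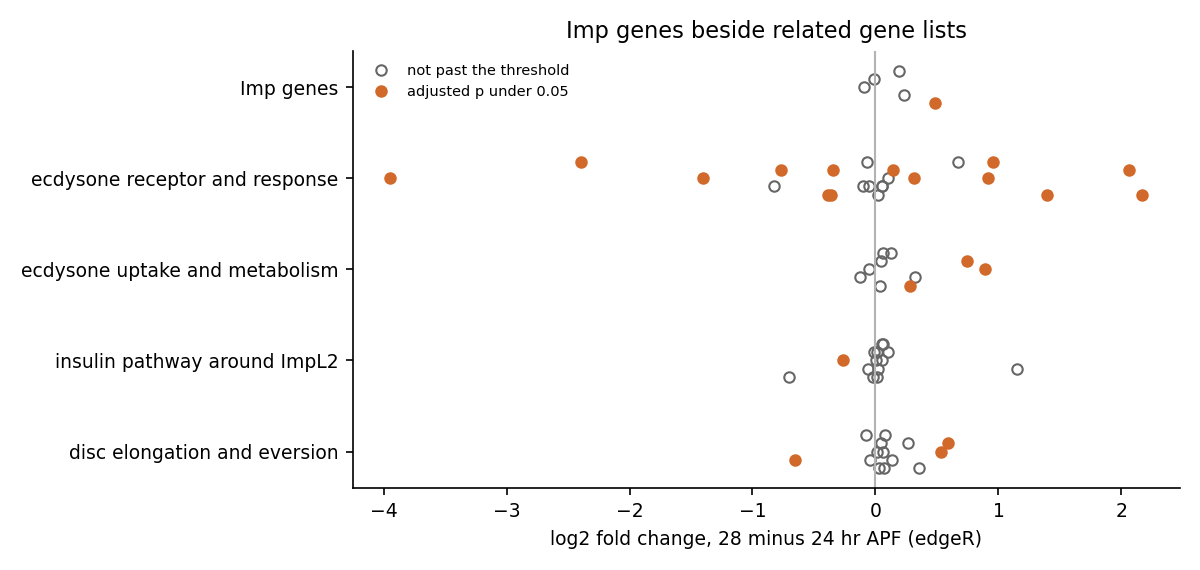
Log2 fold change from 24 hr to 28 hr APF (x axis, edgeR) of the 5 Imp genes and of the tested genes of 4 related lists, with filled orange points past an adjusted p-value of 0.05 and open points not past it. The Imp genes lie between -0.09 and 0.49, inside the span of the ecdysone response list, from -3.94 to 2.17.

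ImpE2 has another gene named for ecdysone induction as its neighbor. Eip63E, a cyclin-dependent kinase gene on the opposite strand, starts at 3515751 and had 24.6 ± 1.03 and 26.6 ± 1.36 rpkm (SD, n = 4 each). It passed the threshold with overlapping ages, at a log2 fold change of 0.14 with an adjusted p of 0.0458 in edgeR. On the other side of ImpE2, CG42324 ends at 3510895 and had at most 3.93 rpkm in any library, far below ImpE2. Ldh, the lactate dehydrogenase gene that was once named ImpL3, is not among the 5 and was looked at after its values were seen. Ldh was at 11.1 ± 1.80 rpkm at 24 hr and at 20.8 ± 2.53 rpkm at 28 hr APF (SD, n = 4 each). Its log2 fold change was 0.95, with a standard error of 0.11 and an adjusted p of 0.000130 in edgeR. Each 28 hr library was at or above 18.0 rpkm while no 24 hr library exceeded 12.9 rpkm.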

How the data were processed

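Poly-A RNA of 8 single male terminalia was sequenced, and the authors aligned 51-base reads of 3 lanes to dm3 with tophat 2.0.13, counted reads in unioned FlyBase r5.57 exons with bedtools and deposited raw counts without normalization. Use of strand and the handling of reads on several genes are not given in the sources used here. Names, exon lengths and coordinates came from a BDGP6 annotation matched by identifier, which is not the assembly of the alignment, and 414 of 16845 identifiers had no length. rpkm was computed on total counts. The ages were compared by the quasi-likelihood test of edgeR 4.0.16 (R 4.3.3) on counts scaled by TMM, after filterByExpr at a minimum of 10 reads, with Benjamini-Hochberg adjustment and a threshold of 0.05, tested on simulated data beforehand. The standard error is the absolute log2 fold change over the square root of F, and intervals use the t distribution of that fit. Intervals are per gene and are not adjusted over the tested genes. Ratios between members used scipy 1.17.1 and were chosen after the data were seen. Settings tried were normalization, DESeq2 1.42.0, the filter, a replicate block, a minimum fold change, exon length, ImpE2 left out of library sizes and each library left out. Libraries of one age differed by more than sampling noise in every pair (the lowest chi-square divided by its degrees of freedom was 7.36).

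The members and gene lists were chosen with earlier results of these data known. Named genes were the members, up to 3 called increases and 3 called decreases of each list whose ages did not overlap, the 3 nearest profiles of a called member with at least 5 rpkm (log2 CPM, prior count 2), and genes that overlap a member. EcR, usp, Oatp74D, Sb, dpy, Ilp1, Ilp2, Ilp3, Ilp4, Ilp5, Ilp6, Ilp8, repo, crq and Act57B were named after their values were seen. So were Abd-B, cad, shg, arm, the low markers of other tissues, the neighbors of ImpE2, CG34247, FBgn0262720, FBgn0000556 and Ldh. Listed symbols were matched through synonyms where renamed, and br, nvd, InR, zip, FASN1, vas, para and btl were not analysed here. The muscle list had 4 genes called higher and 4 lower of 8, the fat body list 1 and 1 of 6, the hemocyte list 0 and 1 of 7, and the germ line list none of 2. Over all tested genes, the shares called higher and lower were 15.6% and 17.3%.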

Additional observations from a re-analysis of the deposited data

Results flagged for a closer look

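In 5 of 44 sets of 4 libraries, the highest or lowest value lay far from the remaining 3, and chance alone flags about 2.2 of that many (1 in 20). ImpE1 was at 18.7 rpkm in replicate 2 at 28 hr APF, against 15.8 to 16.3 rpkm in the others. The log2 count ratio of ImpE1 to ImpE2 was -7.05 in replicate 4 at 24 hr APF, against -6.92 to -6.90 in the others. The log2 count ratio of ImpE2 to ImpL1 was 7.13 in replicate 3 at 24 hr APF, against 7.38 to 7.39 in the others. Fat body markers summed to 183 CPM in replicate 3 at 24 hr APF, against 57.1 to 74.1 CPM in the others. Germ line and testis markers summed to 1.39 CPM in replicate 4 at 28 hr APF, against 3.69 to 3.83 CPM in the others, all levels of few reads.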

How the results depend on the processing

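Between the ages 3692 genes differed, which became 531 when tested against a fold change of 1.5, because a stricter hypothesis is tested, and lay between 3121 and 3435 with 1 library left out and at 3998 with DESeq2. The change of ImpE1 (0.49) lost the threshold only in that test. DESeq2 called ImpE2 (log2 fold change 0.23) and ImpL2 (0.19); the cause was not tested. With 1 library left out, log2 fold changes of ImpE1 lay between 0.43 and 0.53, of ImpE2 between 0.14 and 0.28, of ImpE3 between -0.297 and 0.087, of ImpL1 between -0.038 and 0.017, and of ImpL2 between 0.13 and 0.23. ImpE3 and ImpL1 changed sign in 3 such fits each, near 0. With the length of the longest transcript, ImpL2 was at 96.8 rpkm at 28 hr APF, because a shorter length divides the count. Leaving ImpE2 out of the library sizes, an alternative chosen after seeing the data, changed no call of a member. ImpE3 rested on the fewest reads, 64 to 181 in a library, and its spread was also wider than that of most genes of like count.

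The replicate numbers do not pair the pupae: deviations of same-numbered libraries had correlations of -0.16, 0.16, -0.22 and 0.14 across genes, and 2 of 8 libraries correlated best with their own number. A fit with a replicate block gave 3175 genes, ImpL2 passed the threshold (log2 fold change 0.19, adjusted p = 0.0115 in edgeR) and the calls of the other 4 members did not change.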
